A study of Drosophila melanogaster with 4 samples.

Results

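Stretches of at least 50 kb without any H4K8ac cluster, called deserts here, made up 30.3% of the 5 large chromosome arms of Drosophila melanogaster in adult head nuclei. They were chosen by the positions of the enriched regions (clusters) in 2 H4K8ac ChIP-seq lists. The clusters of both replicates were merged on 2L, 2R, 3L, 3R and X, and every gap of at least 50000 bp between merged clusters was kept, gaps at the ends of the arm sequences included. Of 8445 gaps, 338 were deserts, or 4.00%. They held 36.1 Mb, which was 43.9% of all bases in gaps. Because cluster positions chose the deserts, their number, size and place are descriptions and carry no test.

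The flies were mixed adults of the wild-type strain Oregon-R, and all samples share this genotype and stage. The series has 2 H4K8ac ChIP libraries and 2 input libraries, and each input library served its ChIP library as control in the authors' calling. A further deposited list, the combined list, stands for both replicates together. Heads were sieved from population cages, so their nuclei come from all cell types of the head, and the labels give no sex and do not say whether the replicates are separate collections. Read totals were not in the lists, so depth is unknown, and coordinates are those of FlyBase release 5. A desert is a statement on calls: a stretch with few usable reads cannot be told apart here from one without the mark.

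H4K8ac is acetylation of lysine 8 in the tail of histone H4. Acetylation takes the positive charge from the lysine and loosens the hold of the tail on DNA, bromodomain proteins can bind it, and deacetylases remove it. It marks promoters, enhancers and bodies of active genes. In flies, long stretches of chromatin without marks of activity are known from genes silenced by Polycomb proteins, from chromatin held at the nuclear lamina and from the heterochromatin around centromeres.

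Most gaps between acetylated regions were short, and the deserts formed the far tail of their lengths. The median gap of any length was 2056 bp, between quartiles of 618 and 7675 bp. Deserts had a median length of 81.1 kb and quartiles of 61.8 and 117 kb. Of the 338, 228 measured less than 100 kb and 110 measured 100 kb or more, and the longer class held 55.7% of the desert bases. Only 27 reached 200 kb. The 10 longest summed to 4.77 Mb, or 13.2% of the desert bases. The limit of 50 kb cut through a continuous range of lengths. The shortest deserts measured 50113 bp (3L 11121240 to 11171352), 50167 bp (2R 508379 to 558545) and 50189 bp (2R 12107162 to 12157350). Just below the limit lay gaps of 49652 bp (3L 7374843 to 7424494), 49576 bp (X 10742522 to 10792097) and 49463 bp (3L 16351238 to 16400700).

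X held the most deserts and the largest share of desert bases of the 5 arms. On X, 83 deserts took up 38.7% of the arm, against 255 deserts and 28.4% on the autosomal arms, a ratio of shares of 1.37. Among the autosomal arms, 65 deserts took up 32.0% of 2L, 72 took up 31.9% of 3L, 55 took up 25.8% of 2R and 63 took up 24.2% of 3R. There were 3.70 deserts per Mb of X and between 2.26 and 2.93 per Mb of each autosomal arm. Deserts on X were more numerous rather than longer. Their median length, 83.4 kb, lay within the range of the autosomal arms from 68.8 kb on 2R to 89.2 kb on 2L. The same excess stood in each replicate taken alone, with ratios of 1.29 for replicate 1 and 1.39 for replicate 2, and in the combined list, with 1.23. It turned when only the upper 50% of each list by score was kept, to a ratio of 0.886. Clusters on X that border no desert had a higher median score than those on the autosomal arms, at 0.79 ± 0.04 against 0.64 ± 0.01 (SD, n = 2). The part of this difference in the turn was not tested.

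**Figure D1:**
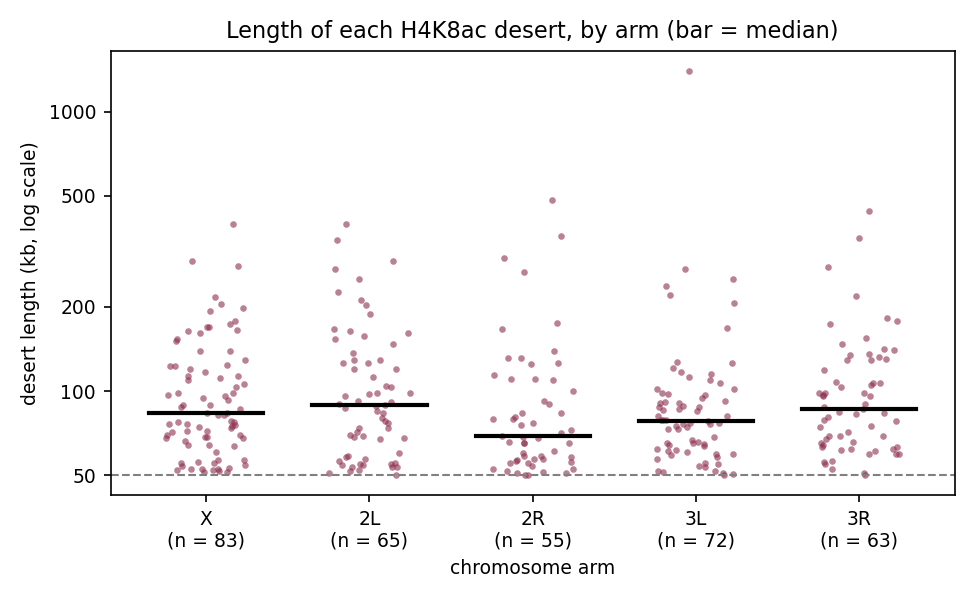
Length of each of the 338 deserts in kb on a log axis, by chromosome arm, with 1 point per desert and a bar at the median. The dashed line marks the 50 kb limit. Medians lie between 68.8 kb on 2R and 89.2 kb on 2L, and 1 desert of 1399 kb on 3L stands far above the rest.

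Cluster coverage was lower on X outside the deserts too. There it was 27.3% ± 2.07 on X, against 38.4% ± 1.05 over the 4 autosomal arms (SD, n = 2). With deserts included it was 16.7% ± 1.27 on X, against 27.5% ± 0.75 over the autosomal arms. Outside deserts the 4 autosomal arms lay between 37.3% on 2R and 38.8% on 3R, a narrower range than the 26.3% to 29.4% of the whole arms in relative terms. The number of clusters was nearer between X and the autosomal arms outside deserts. X had 95.2 ± 3.35 per Mb, against 98.6 ± 0.572 per Mb on autosomal arms (SD, n = 2), a difference of about the spread between replicates. Over whole arms X had 58.3 ± 2.05 clusters per Mb, against 70.6 ± 0.410 per Mb on autosomal arms.

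Of the 10 longest deserts, 6 touched the 2 Mb at the centromere ends of the arm sequences, which are the high coordinates of 2L, 3L and X and the low coordinates of 2R and 3R. Of the 27 deserts of at least 200 kb, 9 touched these segments and 18 lay elsewhere. Of all 338 deserts, 33 touched them and 305 lay elsewhere. The segments are 2 Mb of each arm, and the arms sum to 119 Mb. Gaps of any length that touch the segments were not counted. The counts alone therefore do not show whether deserts were more numerous there. By bases, deserts took up 65.2% of the segments and 27.1% of the rest of the arms. The longest desert of all was the last 1399 kb of 3L, from 23144368 to the end of the arm sequence at 24543557. Neither replicate had a cluster in it, and the combined list reached into it for 0.0401% of its length, from the border. The longest on 2R, 481.4 kb at 1147933 to 1629290, began 1.15 Mb from the centromere end. On 2L a desert of 397.1 kb at 21747904 to 22145049 ended 0.87 Mb from that end, and on X one of 396.5 kb at 21484143 to 21880627 ended 0.54 Mb from it. Deserts of 358.0 kb at 2R 618719 to 976684 and 299.8 kb at 2R 131341 to 431092 lay in the same stretch of 2R.

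The 2 Mb at the centromere end were filled with deserts on 4 of the 5 arms. Deserts took up 84.6% of these 2 Mb on 2L, 82.4% on 2R, 82.2% on 3L and 71.7% on X. The arm 3R was different, with 4.94% and a single desert touching the segment. The 2 Mb at the telomere end held less on those 4 arms, with 40.1% on X and between 17.7% and 19.8% on 2L, 2R and 3L. On 3R the telomere end held more than the centromere end, with 23.9%. In the middle of the arms deserts took up 35.0% of X and between 20.1% and 28.4% of each autosomal arm. Leaving out the 2 Mb at each centromere end was chosen after the data had been seen. It left 35.5% of X and 25.2% of the autosomal sequence in deserts. Dropping pieces cut to under 50 kb gave a ratio of 1.40.

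The other 4 of the 10 longest deserts lay on 3R, 2L and X. One on 3R spanned 354.5 kb at 12456368 to 12810865, 12.46 Mb from the centromere end. Its own gap was 358.1 kb in replicate 1 and 354.9 kb in replicate 2, and the combined list held no cluster inside it and touched 0.0279% of its bases. The longest outside the 2 Mb segments, 442.7 kb at 3R 2458894 to 2901552, lay 2.46 Mb from the centromere end. It had 2 combined clusters inside and 0.542% of its bases covered. The next desert, 278.6 kb at 2939314 to 3217956, held 13 combined clusters, the most of any desert, and was covered to 6.42%. On 2L, 347.2 kb at 5308442 to 5655649 were free of replicate clusters, and on X 292.5 kb at 4250692 to 4543189 were. These 2 lay 17.36 and 17.88 Mb from the centromere ends of their arms.

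In 1 Mb windows, deserts were present nearly everywhere, and only a few windows were filled by them. Of 117 full windows counted from the centromere ends, 112 held desert bases and 5 held none. The median window was 27.7% desert, with quartiles of 15.4% and 39.3%. On X the median was 33.1%, with no window of 22 free of deserts, and on the autosomal arms it was 26.5%, with 5 of 95 free. More than 50% of the bases were desert in 14 windows, and 9 of these were among the 15 windows within 3 Mb of a centromere end. The densest window away from these ends was X 15422828 to 16422827, at 82.5%. Clusters of replicate 1 covered 4.77% of it and those of replicate 2 covered 5.00%. It held 7 whole deserts one after another, of 51.32, 153.5, 75.24, 205.0, 174.1, 87.42 and 78.18 kb. All windows free of deserts were autosomal, at 2L 17011545 to 18011544, 3L 18543558 to 19543557, 3R 1000001 to 2000000, 3R 14000001 to 15000000 and 3R 16000001 to 17000000. Clusters covered between 27.2% and 39.7% of these in each replicate.

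**Figure D2:**
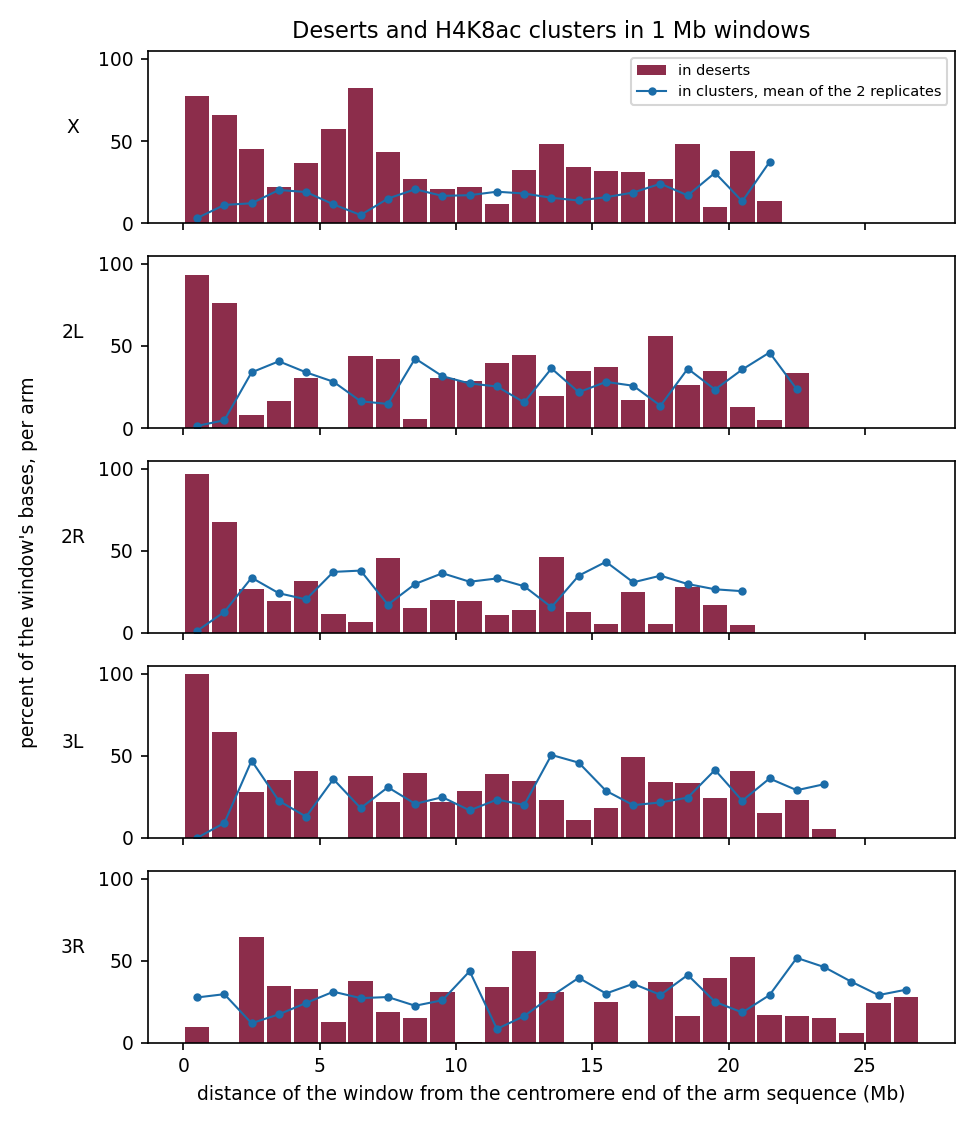
Percent of the bases of each 1 Mb window in deserts (bars) and in H4K8ac clusters (points, mean of the 2 replicates) against the distance from the centromere end of the arm sequence in Mb, 1 panel per arm. Bars are tall at the left on X, 2L, 2R and 3L and low there on 3R, and X has a further window at 82.5%.

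Sequence free of deserts came in stretches of a median of 129 kb, made up of clusters and any shorter gaps between them. The median stretch was 76.9 kb on X, against medians between 128 kb on 3L and 217 kb on 3R for the autosomal arms. The longest stretch free of deserts was 1.60 Mb at 2L 16882537 to 18482703, where clusters covered 35.5% ± 0.136 (SD, n = 2). The longest on 3R was 1.49 Mb, at 15683839 to 17172582, with 34.8% ± 2.18 covered. On 3L the longest was 1.15 Mb at 9745180 to 10892699, with 56.8% ± 0.352 covered. The longest on X was 0.902 Mb at 2443133 to 3345411, with 34.0% ± 3.71 covered.

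Deserts lay next to each other more often than the share of deserts among gaps. Of the 671 sides of deserts that face another gap across a single merged cluster, 98 faced a desert, or 14.6%. A pair of neighbouring deserts counts once from each side. Of the sides of shorter gaps, 3.54% faced a desert, and deserts were 4.00% of all gaps. Neighbouring deserts made 36 runs, of which 31 were pairs and 5 had 3 or more deserts, with 85 deserts in runs. The longest run was at the centromere end of 2R, where 9 deserts filled 99.1% of the 1.66 Mb from 19632 to 1682576. Its 8 islands of acetylation measured from 1342 to 2911 bp, and 4 of them were seen in both replicates. The next, 5 deserts at 2L 21345879 to 22430216, filled 99.1% of 1.08 Mb, and both replicates had all of its 4 islands, which measured from 1797 to 3798 bp. Runs of 3 lay at 2L 22443849 to 22967512, 3R 6438046 to 6679572 and 3R 19931371 to 20201886. Neighbouring gaps share a border and are not independent of each other. Whether such deserts belong to the same domain of an arm was not tested.

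Each desert lies within a gap of both replicates because the clusters were merged, so their overlap is partly set by the rule. Replicate 1 alone had 390 gaps of at least 50 kb over 42.0 Mb, and replicate 2 had 379 over 43.2 Mb. Of these, 325 in replicate 1 and 319 in replicate 2 touched a desert of the merged clusters, while 65 and 60 were broken below 50 kb by clusters of the other replicate. Clusters of replicate 2 touched 273 (70.0%) of the long gaps of replicate 1, and clusters of replicate 1 touched 322 (85.0%) of those of replicate 2. They held few bases. Clusters of replicate 2 covered 1.34% of the long gaps of replicate 1, and clusters of replicate 1 covered 1.81% of those of replicate 2. A desert was a median of 99.6% of the gap it lay in in replicate 1 and 96.4% in replicate 2. It made up at least 95% of that gap in 244 deserts in replicate 1 and in 184 in replicate 2. It made up less than 50% of that gap in 17 deserts in replicate 1 and in 26 in replicate 2. At the centromere end of 2R, replicate 1 had 1 gap of 703.0 kb where the merged clusters gave 3 deserts, of 166.7, 481.4 and 51.81 kb.

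The combined list, which calls more of the genome, placed little in the deserts. Its clusters covered 3.67% of the desert bases, against 21.4% of the shorter gaps and 40.1% of the 5 arms. With deserts drawn from replicate 1 alone the value was 5.91%, and from replicate 2 alone 6.47%. The combined list stands for the same replicates, so this is no independent evidence. Coverage went down with gap length. It was 64.2% in gaps under 2000 bp, 43.5% from 2 to 5 kb, 27.3% from 5 to 10 kb, 17.2% from 10 to 20 kb, 9.74% from 20 to 50 kb, 5.51% from 50 to 100 kb and 2.21% from 100 kb. Clusters that reach in from the borders count in this coverage. Those wholly inside had no such steady order, with 14.4 per Mb in gaps under 2000 bp, 102 from 5 to 10 kb and 14.1 from 100 kb. The smallest combined cluster measured 1001 bp, which limits how many fit in the shortest gaps. Few deserts were wholly free of combined clusters when those that reach in from a border count. Wholly inside, 56 deserts (16.6%) held none. In 1 desert of 338, or 0.296%, there was no combined cluster at all, and 2.08% of gaps of any length had none. That desert was X 9151384 to 9228774, of 77.39 kb. Its gap was 77.39 kb in replicate 1 and 195.1 kb in replicate 2.

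Most combined clusters in deserts were small and weak, as were combined clusters elsewhere that overlapped no replicate cluster. Wholly inside deserts lay 815 of 10605 combined clusters, or 7.69%, and another 461 reached in from outside. The inside clusters had medians of 1272 bp in length and 0.41 in score, and all others had 2276 bp and 0.46. Their size was close to that of the 3173 combined clusters that lay outside deserts and overlapped no replicate cluster, whose medians were 1316 bp and 0.41. Of the inside clusters, 446 (54.7%) were shorter than 1301 bp, the smallest length in the replicate lists, against 17.0% of the others. The others include clusters that overlap a replicate cluster, which those inside deserts cannot by the choice of the deserts. This share was not counted for the 3173 alone. The longest measured 4053 bp, at X 7100905 to 7104957, with a score of 0.50. The highest score, 1.75, belonged to a cluster of 1001 bp at 2R 4378117 to 4379117.

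Combined clusters covered 22.0% of the 2 kb next to each edge and 2.96% of the rest of the deserts. Clusters that reach in across the edge gave 13.9% of the strips, and clusters wholly inside gave 8.16% of the strips and 2.95% of the rest. Inside clusters lay a median of 13.8 kb from the nearest edge. There were 22.6 of them per Mb of desert, against 68.8 per Mb for combined clusters without a replicate cluster in the shorter gaps. No inside cluster was found in 56 deserts, 1 was found in 88, 2 in 61 and 3 or more in 133. In 205 deserts (60.7%) a stretch of at least 50 kb remained free of combined clusters. Per desert the covered share was 3.66% at the median, between quartiles of 1.59% and 6.70%. The 3 deserts with the largest share covered were 2R 13113820 to 13164892 at 22.9%, 2R 9634390 to 9711185 at 22.0% and 2R 12973334 to 13024126 at 22.0%. They held 7, 8 and 6 combined clusters inside. The covered share was 4.62% in deserts of X and 3.37% in those of the autosomal arms.

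**Figure D3:**
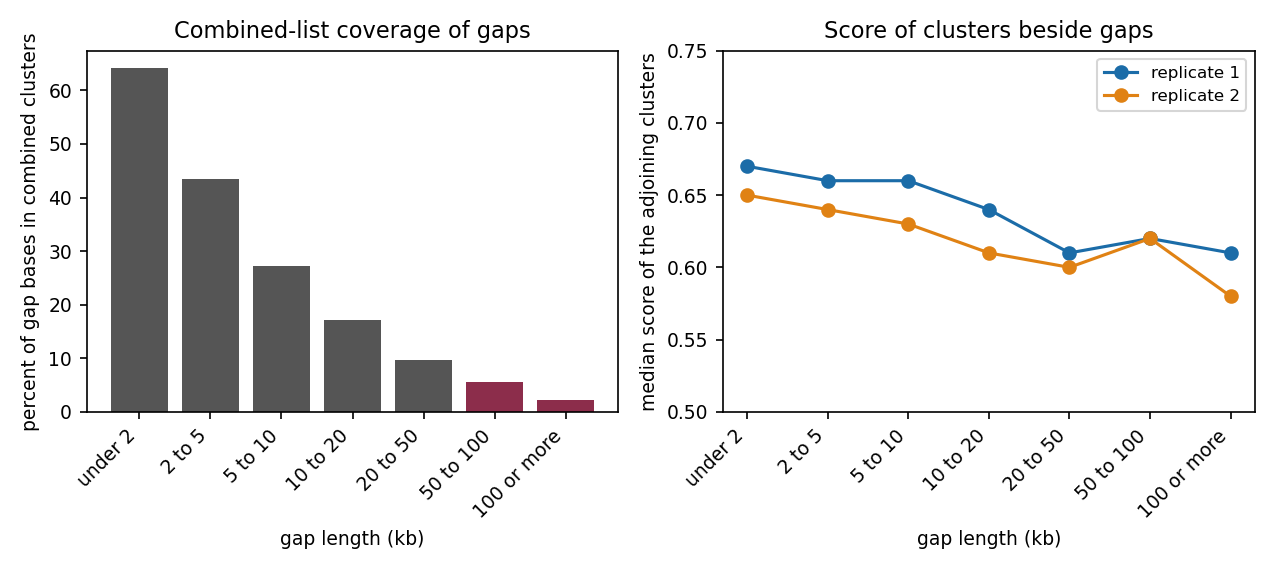
Left, percent of the bases of gaps in clusters of the combined list, by gap length in kb, with deserts in dark red. Right, median score of the clusters that adjoin gaps of each length, for each replicate, on an axis that starts at 0.5. Coverage is 64.2% in the shortest class and 2.21% in the longest, where the median scores are 0.61 (replicate 1) and 0.58 (replicate 2), against 0.67 and 0.65 in the shortest.

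The clusters on the borders of deserts were shorter and lower in score than all other clusters, and close to clusters beside gaps of 20 to 50 kb. A border cluster is the cluster of a replicate nearest to the edge within the merged cluster that ends the desert. In replicate 1 there were 493, with medians of 1900 bp in length and 0.62 in score, while the 7642 others had 2213 bp and 0.67. In replicate 2 there were 424, with medians of 1920 bp and 0.61, while the 7702 others had 2131 bp and 0.65. The length ratio was 0.880 ± 0.0298 and the score difference -0.044 ± 0.009 (SD, n = 2). Both replicates went the same way, and the distributions overlapped widely. Beside gaps of 20 to 50 kb, the medians were 1926 bp and 0.61 in replicate 1 and 1885 bp and 0.60 in replicate 2. Beside deserts of 50 to 100 kb they were 1928 bp and 0.62 in replicate 1 and 1973 bp and 0.62 in replicate 2. Beside deserts of 100 kb or more they were 1772 bp and 0.61 in replicate 1 and 1817 bp and 0.58 in replicate 2. In replicate 1 the quartiles of the score were 0.53 and 0.74 for border clusters and 0.58 and 0.78 for the others. In replicate 2 they were 0.52 and 0.72 for border clusters and 0.56 and 0.74 for the others. No test was made, since 2 replicates cannot go below an exact sign test p of 0.5.

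The differences were present on X and on the autosomal arms. On X the border clusters had a median score of 0.754 ± 0.017 against 0.792 ± 0.040, and on the autosomal arms 0.576 ± 0.002 against 0.638 ± 0.012 (SD, n = 2 each). The length ratio was 0.882 ± 0.0345 on X and 0.862 ± 0.0294 on the autosomal arms. Domains of at least 10 kb were 12 (2.43%) of the border clusters in replicate 1 and 8 (1.89%) in replicate 2, against 6.36% and 5.91% of the other clusters and 6.12% and 5.70% of all clusters. By gap length there was no steady order. Such domains were 3.40% and 3.33% of the clusters beside gaps of 20 to 50 kb in replicates 1 and 2, 1.74% and 0.678% beside deserts of 50 to 100 kb, and 3.61% and 4.26% beside deserts of 100 kb or more. On X, 1 border cluster of replicate 1 and none of replicate 2 was that long. When only bases in clusters of both replicates could end a desert, the length ratio turned to 1.03 and the score difference shrank to -0.012. In that setting every border cluster overlapped a cluster of the other replicate, while the other clusters still included those seen in 1 replicate. The 2 sets were thus chosen unlike each other, and the cause of the shift was not tested.

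**Figure D4:**
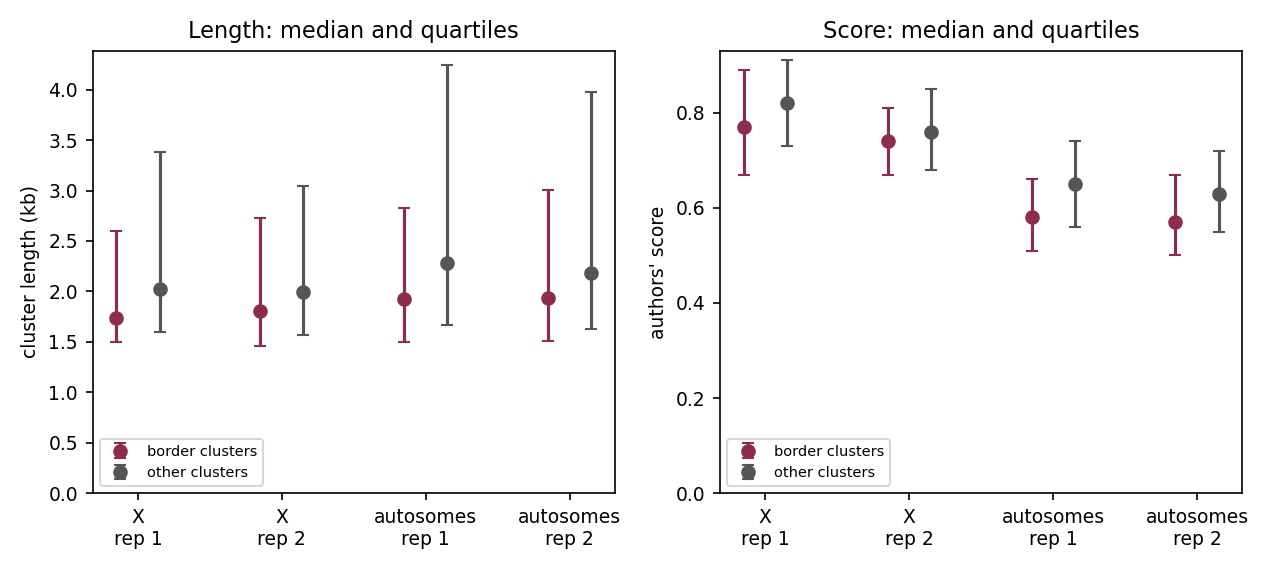
Median and quartiles of cluster length in kb (left) and of the authors' score (right) for border clusters (dark red) and other clusters (grey), in each replicate, on X and on the autosomal arms. Border medians lie below the others in all 4 pairs of each panel, and the quartile ranges overlap.

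Over all gaps, the median score of the adjoining clusters was lower beside long gaps than beside short ones, without a steady step from class to class. In replicate 1 it was 0.67 beside gaps under 2000 bp, 0.64 beside those of 10 to 20 kb, 0.61 beside those of 20 to 50 kb, 0.62 beside deserts of 50 to 100 kb and 0.61 beside those of 100 kb or more. In replicate 2 the values for the same classes were 0.65, 0.61, 0.60, 0.62 and 0.58. Among the deserts themselves, length was nearly unrelated to the border. Spearman's rho between the length of a desert and the score of its border cluster was -0.0981 over 530 edges in replicate 1 and -0.0974 over 456 edges in replicate 2. With the length of the border cluster it was -0.0584 and -0.00144. Edges share clusters and libraries, so these are descriptions without a p.

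Edges of deserts were often seen in 1 replicate. Of 671 edges, 315 (46.9%) had a cluster of both replicates, 215 of replicate 1 alone and 141 of replicate 2 alone. Counted as merged clusters, 47.4% of the 622 that border a desert held clusters of both replicates, against 61.2% of the 7818 others and 60.2% of all. Where both replicates had the edge, they placed it closely. The median offset was 266 bp, with quartiles of 85.5 and 670 bp, and 83.5% of these edges were within 1000 bp. The 49 islands between 2 deserts had a median of 1821 bp, and 40.8% were in both replicates. The 573 merged clusters with a desert on 1 side had a median of 1945 bp, and 48.0% were in both. Median scores of island clusters were 0.59 and 0.56 in replicates 1 and 2, against 0.62 in each replicate for clusters with a desert on 1 side.

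Border clusters of the 10 longest deserts measured from 1310 to 4576 bp. Most, but not all, were shorter than the median other cluster of their replicate, 2213 bp in replicate 1 and 2131 bp in replicate 2. Some of these deserts are given as examples. The last desert of 3L was bordered by a cluster of 2172 bp with a score of 0.63 in replicate 1 and of 1342 bp with a score of 0.36 in replicate 2. The 354.5 kb desert of 3R had on its left a cluster of 4576 bp with a score of 0.70 in replicate 1 and of 1784 bp with a score of 0.52 in replicate 2. On its right stood a cluster of 1803 bp with a score of 0.47, in replicate 2 alone. The 347.2 kb desert of 2L had a border seen once on each side, 1845 bp with a score of 0.61 in replicate 2 and 1380 bp with a score of 0.69 in replicate 1.

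A few deserts ended abruptly at strong domains. The strongest border was at 3R 27243551, where a domain of 37.8 kb with a score of 1.41 in replicate 1, and of 36.5 kb with a score of 1.36 in replicate 2, adjoined a desert of 132.7 kb at 27281321 to 27414032. Its score had rank 3 in the list of each replicate. The longest border cluster of replicate 2 measured 41.5 kb with a score of 0.95, at 2R 14172692 to 14214179, beside a desert of 126.1 kb. The border cluster of replicate 1 at that edge was not among its 5 longest, of which the shortest measured 13.3 kb. At 2L 16704805, a cluster of 17.0 kb with a score of 0.91 in replicate 1, and of 16.6 kb with a score of 0.90 in replicate 2, adjoined a desert of 160.8 kb. At 2L 12543459 a desert of 203.9 kb began beside clusters of 13.3 kb (score 0.86) and 13.5 kb (score 0.91) in replicates 1 and 2. Among the other high scores beside deserts were X 1117951 to 1128424 at 1.19 in replicate 1 and X 1117898 to 1127575 at 1.09 in replicate 2, next to a desert of 67.92 kb. A short cluster of 1397 bp at X 1528869 scored 1.20 in replicate 1. Another of 2253 bp at 2L 15705109 scored 1.16 in replicate 2, beside a desert of 86.91 kb. Replicate 1 had no cluster at that edge, and its own gap there was 92.83 kb.

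Cluster coverage came to a nearly even level within a few kb outside the edges. In the first kb outside, clusters of replicate 1 covered 71.2% of bases and those of replicate 2 covered 57.3%, which the definition of an edge sets. In the third kb the values were 34.2% and 29.7%, and in the sixth kb 22.2% and 23.6%. From there to 50 kb they stayed at 20.0% to 24.5% in replicate 1 and 18.7% to 23.7% in replicate 2, below the means of the whole arms of 26.1% and 24.9%. The means of the whole arms include the deserts. With all deserts left out, coverage of the 5 arms was 36.6% ± 1.22 (SD, n = 2). Another desert can begin within 50 kb of an edge, as it does across the 49 islands. The values outside edges are therefore not set like for like against this one. The combined list covered 27.0% of the first kb inside the deserts, 17.0% of the second and 10.7% of the third. It covered 2.60% at 24.5 kb inside.

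**Figure D5:**
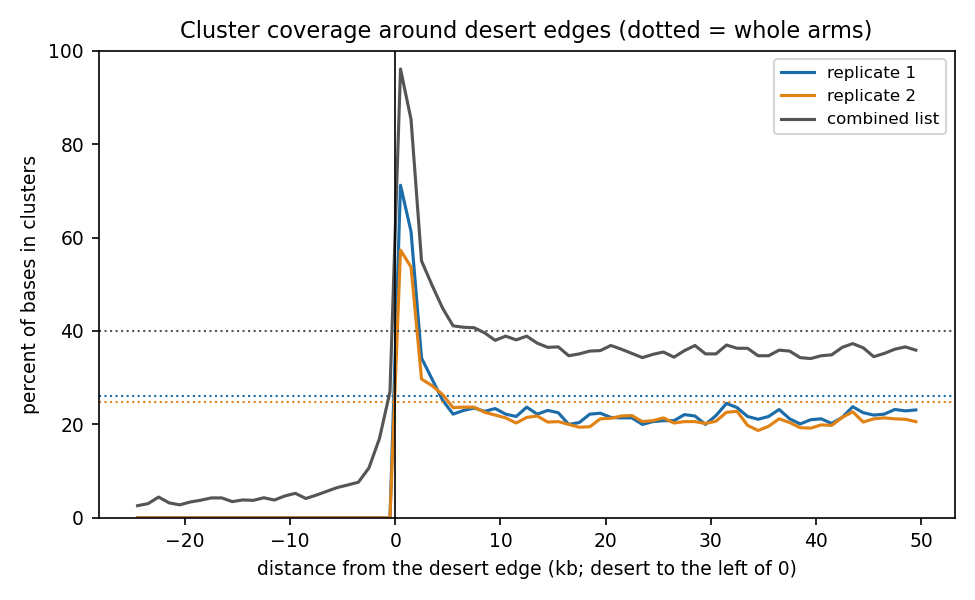
Percent of bases in clusters of replicate 1, replicate 2 and the combined list, in 1 kb bins from 25 kb inside a desert edge (left of 0) to 50 kb outside it, over 671 edges. Dotted lines give the share of the whole 5 arms in the same list. The replicate lines are at 0 inside by the choice of the deserts and stay under the dotted lines from the sixth kb outside.

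Ends of the arm sequences were deserts in 5 of 10 cases, while deserts were 4.00% of all gaps. At the telomere ends these were the first 58.2 kb of 2L, the first 55.1 kb of 3L, the first 170 kb of X and the last 175 kb of 2R. The end of 3R on that side was a gap of 10.9 kb. At the centromere ends, the last gap was 1399 kb on 3L, but 42.1 kb on 2L, 17.0 kb on 2R, 46.3 kb on 3R and 6.89 kb on X, below the limit. The combined list covered 4.56% and 4.51% of the deserts at the ends of 2L and 3L, and 0.103% and 0.0365% of those at the ends of X and 2R.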

How the data were processed

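The deposited lists hold regions with a start, an end and the authors' score for each region. Per the labels, each ChIP replicate was set against its own input, and the submitters' processing notes name Bowtie 0.12.7. The sources used here do not state the caller, its threshold, how the combined list was made or the scale of the score. Region numbers ran without a missing number up to the highest number in all 3 lists. Rows lost after the highest number, or regions removed before numbering, cannot be seen this way. Per the file headers, coordinates and arm lengths are those of FlyBase release 5. The gene table at hand is of release 6, so genes and sequence of the deserts are not analysed here.

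Enriched regions of both replicates were merged where they overlapped or touched, and gaps were measured in Python 3.11.15 with numpy 2.4.6 and scipy 1.17.1. The region marked as depleted was left out. The gap finder was tested on simulated data with planted gaps. Values are given per replicate or as mean ± SD over the replicates, and "against" compares a group with the rest of the same list. Since read totals are unknown, no error of a single score is given. Regions named are the 10 longest deserts, the longest of each arm, those at arm ends, those nearest the limit, the 3 with most combined coverage, and the longest and highest-scoring border clusters. Windows, runs, stretches, inside clusters and the deserts with no or most combined clusters were named after their values were seen. The deserts and all measures were chosen with earlier results of these data known.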

Additional observations from a re-analysis of the deposited data

How the results depend on the processing

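No paired analysis was possible because no test between groups was made and the input libraries had no list. Of 63 alternative values of 6 results, 28 stayed within 1.5 times (number of deserts) or within the SD between replicates taken alone (other results), 33 moved by more without turning, and 2 turned. With a minimum gap of 40 kb, deserts summed to 40.4 Mb. With 75 kb there were 195 over 27.4 Mb, 2.81% covered by the combined list, with a border score difference of -0.056. With 100 kb there were 110 over 20.1 Mb, 2.21% covered, with a difference of -0.062 and a length ratio of 0.832. With the upper 50% of each list by score, deserts summed to 59.1 Mb, 12.5% covered, the score difference was -0.021, the length ratio 0.983, and the ratio of desert shares, X over autosomal, turned to 0.886. With clusters of at least 2000 bp the values were 55.3 Mb, 10.3% and -0.024. Where only bases in clusters of both replicates ended a desert, they were 52.6 Mb, 10.2% and -0.012, and the length ratio turned to 1.03. With the combined list in place of the replicates there were 222 deserts over 23.7 Mb, with a length ratio of 0.807 and a ratio of X of 1.23. Its own coverage of deserts is then 0 by construction and was not counted. Without arm ends deserts held 34.2 Mb. With 1 replicate left out, deserts held 42.0 to 43.2 Mb, 5.91% to 6.47% covered, with score differences of -0.046 to -0.035 and ratios of X of 1.29 to 1.39. Chosen after seeing the data, leaving out the 2 Mb at the centromere ends gave 29.6 Mb, and counting only combined clusters of at least 1301 bp gave 2.28% covered. Fewer or weaker clusters widen gaps by construction; the causes of the 2 turns were not tested. Depth is unknown, so how many deserts a deeper library would break was not measured beyond the combined list.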

Other observations

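The same limit of 50 kb was applied to chromosome 4 and to the separately assembled heterochromatic sequences, which are not among the 338 deserts. Chromosome 4, a small chromosome rich in heterochromatin, had 5 merged clusters and 5 gaps of at least 50 kb over 97.0% of its 1.35 Mb, the longest of 578 kb. The combined list had 14 clusters on it. Of the heterochromatic sequences of the large arms and Y, such gaps took up between 91.1% (2LHet) and 100% (YHet). The longest measured 1823 kb on 3RHet, 1583 kb on 3LHet and 1564 kb on 2RHet. The 1 region that the combined list marks as depleted, 1533 bp at 3R 23406922 to 23408454 with a score of -0.028, was in no desert, and the nearest desert lay 74.4 kb away.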
